A study of Mus musculus with 6 samples.

Results

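The collagen genes were the 42 genes read by a probe set with a single gene symbol of the form Col, a number, a and a number, of 18193 genes on the array. They lay on 82 probe sets. The brightest probe set was used for each gene, and the genes were grouped into 6 structural classes. Of the 42, 37 lay above the filter on dim genes and were tested, and Col4a3, Col4a4, Col11a2, Col6a5 and Col10a1 were not. The arrays were made from the tongues of C57BL/6J mouse embryos at embryonic day 14.5, 3 from mutants and 3 from controls. The mutants were Tgfbr2 fl/fl; Wnt1-Cre: they carried a recombinase driven by Wnt1 that acts in the cranial neural crest, with both copies of Tgfbr2, the type II TGF-beta receptor gene, floxed. The controls carried the same floxed copies with no Cre (the sample titles name them wildtype). Most connective tissue of the tongue comes from the neural crest, whereas muscle fibres, endothelium and the covering epithelium have other origins and keep the receptor gene. The question was how gene expression in the forming tongue differs when this receptor is lost from the neural crest.

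Collagens are triple helices of 3 chains, and most genes encode a single chain that must find its partners in the cell. Fibrillar collagens make the fibres of connective tissue, network collagens make the sheet of the basement membrane, and the FACIT collagens sit on fibrils or at tissue borders. TGF-beta is known for raising the transcription of fibrillar collagen genes in fibroblasts, through Smad proteins that bind short DNA elements.

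All values are log2 expression as deposited, and a difference is mutant minus control. Litters are not named in the labels, and p-values here reflect only how much these 6 samples vary, which may be partly technical. Tgfbr2 itself read 11.16, 11.79 and 11.69 in the mutants and 11.55, 11.82 and 11.80 in the controls (difference -0.18, limma adjusted p = 0.642). No source used here gives the position of the floxed part relative to the probes, so these values do not check the labels. Mutant array 1 correlated with the other arrays at 0.9658 to 0.9782, below the 0.9841 to 0.9976 of every other pair of arrays. The labels name the material both tongue and tongue mesenchyme, and markers of muscle, epithelium and endothelium were all present: Myh3, the embryonic myosin, lay between 12.31 and 13.92, and Krt14, a keratin of basal epithelium, between 10.37 and 11.73. In bulk tissue, fewer cells of a type and less RNA per cell cannot be told apart.

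At an adjusted p under 0.05 (limma, Benjamini-Hochberg over the 13645 tested genes), 3 collagen genes rose and 1 fell. The risen genes were Col4a5, a basement membrane chain, Col17a1, a transmembrane collagen that anchors basal epithelial cells, and Col9a1, a chain of a cartilage FACIT collagen. The fallen gene was Col19a1, a FACIT collagen known from developing muscle. The 3 are 8.11% of the 37 tested collagens, where 1.32% of all tested genes were called higher. The 1 is 2.70%, where 0.821% of all tested genes were called lower. With the called genes included, 6 collagens had every mutant array above every control array (16.2%, against 13.6% of all tested genes), and 6 had every mutant array below (16.2%, against 11.5%), so these shares were near the background. At an unadjusted p under 0.05 in limma, 6 of the 37 collagens were higher and 6 lower. Of the 13645 tested genes, 1287 were higher and 1018 lower at that cut. The unadjusted counts of classes and lists below are to be read beside these.

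**Figure D1:**
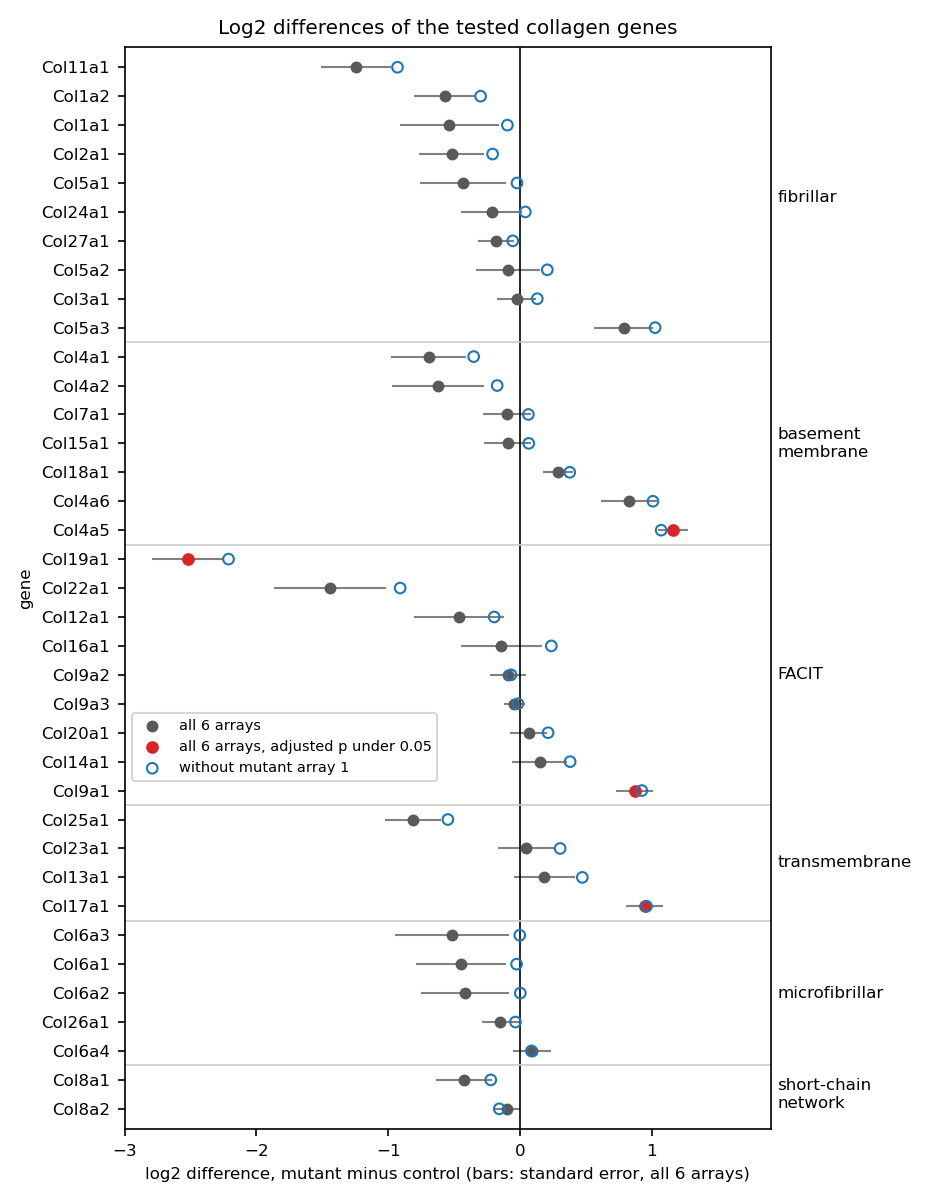
Log2 difference, mutant minus control, of the 37 tested collagen genes by class (vertical axis: gene). Filled points are differences over all 6 arrays with their standard error, red where the adjusted p is under 0.05, and open circles are the differences without mutant array 1. Col19a1 lies farthest to the left at -2.52 and Col4a5 farthest to the right at 1.16.

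The start regions of the 4 called genes, and of Col4a6, which shares a start region with Col4a5, are shown so that the results can be set beside the DNA in front of each gene. Each is the 250 bases upstream of a RefSeq transcription start (GRCm38.p6), read 5′ to 3′ on the strand of the gene, and capitals mark the Smad box, the letters CAGAC or, on the other strand, GTCTG. For the collagens, 33 of the 42 genes matched the RefSeq table, with 36 starts.
Col4a5, chrX:141475169-141475418, plus strand: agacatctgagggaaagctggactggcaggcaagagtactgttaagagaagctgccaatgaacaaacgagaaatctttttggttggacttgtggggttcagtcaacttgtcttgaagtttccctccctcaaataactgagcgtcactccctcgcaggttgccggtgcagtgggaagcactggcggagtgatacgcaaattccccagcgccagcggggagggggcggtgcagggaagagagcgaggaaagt
Col4a6, chrX:141474077-141474326, minus strand: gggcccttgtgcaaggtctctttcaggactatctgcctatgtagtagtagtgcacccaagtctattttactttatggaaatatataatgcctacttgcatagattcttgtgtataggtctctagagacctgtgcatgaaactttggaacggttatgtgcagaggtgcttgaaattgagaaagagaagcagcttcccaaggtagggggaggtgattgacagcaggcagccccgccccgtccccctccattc
Col17a1, chr19:47692043-47692292, minus strand: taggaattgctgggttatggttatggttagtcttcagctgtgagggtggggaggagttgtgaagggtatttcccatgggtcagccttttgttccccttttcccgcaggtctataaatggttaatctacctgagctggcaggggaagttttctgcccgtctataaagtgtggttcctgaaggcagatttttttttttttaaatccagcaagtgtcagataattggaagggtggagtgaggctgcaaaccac
Col19a1, chr1:24587438-24587687, minus strand: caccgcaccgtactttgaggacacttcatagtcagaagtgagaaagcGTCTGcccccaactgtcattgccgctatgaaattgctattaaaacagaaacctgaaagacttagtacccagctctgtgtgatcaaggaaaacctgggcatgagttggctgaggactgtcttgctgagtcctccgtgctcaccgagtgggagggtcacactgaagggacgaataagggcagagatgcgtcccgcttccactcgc
Col9a1, upstream start, chr1:24177360-24177609, plus strand: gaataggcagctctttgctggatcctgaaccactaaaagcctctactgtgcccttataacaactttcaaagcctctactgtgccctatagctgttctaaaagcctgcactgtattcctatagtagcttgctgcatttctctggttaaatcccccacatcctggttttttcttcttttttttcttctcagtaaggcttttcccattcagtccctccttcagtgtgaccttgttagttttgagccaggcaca
Col9a1, downstream start, chr1:24194953-24195202, plus strand: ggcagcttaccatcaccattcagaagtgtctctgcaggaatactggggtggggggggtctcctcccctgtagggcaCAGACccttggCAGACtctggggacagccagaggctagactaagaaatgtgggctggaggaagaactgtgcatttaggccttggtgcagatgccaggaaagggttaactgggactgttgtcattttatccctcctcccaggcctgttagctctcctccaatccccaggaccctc

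The Smad box stood once before Col19a1 and at 2 places before the downstream start of Col9a1, and these letters were not in the windows of Col4a5, Col4a6, Col17a1 and the upstream start of Col9a1. It stood in 15 of the 36 collagen windows (41.7%) and in 42.2% of all 32851 windows of this length. The E-box CAGCTG, which reads the same on both strands, was in 16.7% of the collagen windows and 13.0% of all, and before Col17a1. The CCAAT box (CCAAT or ATTGG) was in 36.1% and 33.8%, and before Col4a5, Col17a1 and the downstream start of Col9a1. The TATA box (TATAAA or TTTATA) was in 13.9% and 12.4%, and before Col17a1. The GC box (GGGCGG or CCGCCC), the letters bound by Sp1, was in 58.3% of the collagen windows and 32.7% of all, and before Col4a5 and Col4a6. These shares were not adjusted for base content. The bases G and C made up 35.2% (Col3a1) to 76.4% (Col5a1) of a collagen window, with a median of 52.4% over all windows. No motif searched contains another. A match is a description of the letters and not a binding site.

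In the basement membrane class, which holds the type IV chains and types VII, XV and XVIII, 7 of 9 genes were tested, 1 rose and 0 fell (limma; at an unadjusted p under 0.05, 3 were higher and 1 lower). Col4a5 encodes the alpha5 chain of type IV collagen, which joins alpha6 in the basement membranes of epithelium and smooth muscle and alpha3 and alpha4 in the kidney. Its mutant arrays 1 to 3 read 10.41, 10.13 and 10.14 and its control arrays 8.95, 9.13 and 9.12. All mutants lay above all controls, with little spread in either group: 10.23 ± 0.16 (SD, n = 3) against 9.07 ± 0.10 (SD, n = 3). Col4a5 rose by 1.16 (standard error 0.11, 2.23-fold, limma adjusted p = 0.0074), and its other probe set differed by 0.69 in the same direction. Without control array 2 or control array 3 the difference was 1.19 in each case and the adjusted p 0.0555 and 0.0545. Of all tested genes, 10 were then called higher and 6 lower without control array 2, and 10 and 9 without control array 3.

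Col4a6, the alpha6 partner, starts next to Col4a5 on the opposite strand of the X chromosome. Its mutant arrays read 6.52, 7.38 and 6.76 and its control arrays 6.17, 6.09 and 5.93. The groups did not overlap, but mutant array 2 stood above the other mutants, and the difference of 0.82 (standard error 0.21) missed the threshold in limma (adjusted p = 0.114). Without mutant array 1 it was 1.01 (adjusted p = 0.0284), and with array quality weights 0.99 (adjusted p = 0.0081). Its other probe set differed by 0.50. Both genes are X-linked, and by Xist and Y-linked transcripts mutant arrays 1 and 3 and control array 1 came from females and the others from males. With sex as a covariate Col4a5 differed by 1.16 (limma adjusted p = 0.0184) and Col4a6 by 0.92 (adjusted p = 0.130). Col4a3 and Col4a4, the chains that join alpha5 elsewhere, lay under the filter value of 5.17 on all arrays, between 3.90 and 4.33.

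Col4a1 and Col4a2 encode the alpha1 and alpha2 chains, which make the network found in nearly every basement membrane, blood vessels included. Col4a1 read 10.87, 11.77 and 12.01 in the mutants and 11.99, 12.31 and 12.44 in the controls, a difference of -0.69 (standard error 0.28, adjusted p = 0.281). Col4a2 read 9.01, 10.43 and 10.28 in the mutants and 10.28, 10.65 and 10.65 in the controls, a difference of -0.62 (standard error 0.35, adjusted p = 0.423). In both genes mutant array 1 was far below the other mutants, which lay close to control array 1, the lowest control. Without it the differences were -0.35 and -0.17. The type IV chains differed in direction by value. Relative to Col4a1 on the same array, Col4a5 was 1.85 higher in the mutants, with no overlap between groups (exact 2-sided permutation test, p = 0.1, the smallest that 3 against 3 arrays allow, and 0.2 adjusted over 12 chain pairs). Col4a5 minus Col4a1 was -0.47 on mutant array 1, which stood apart from -1.64 and -1.87 on mutant arrays 2 and 3. The controls read -3.03, -3.19 and -3.31.

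Col18a1, whose C-terminal fragment is endostatin, read 8.79, 9.15 and 8.97 in the mutants and 8.76, 8.57 and 8.70 in the controls. All mutants lay above all controls, by a narrow margin for mutant array 1. The difference of 0.29 (standard error 0.12, limma adjusted p = 0.277) passed the threshold with array quality weights (0.39, adjusted p = 0.0472) and in no other fit. Col7a1, the chain of the anchoring fibrils under epithelium, differed by -0.10 and Col15a1 by -0.10, with overlapping groups.

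**Figure D2:**
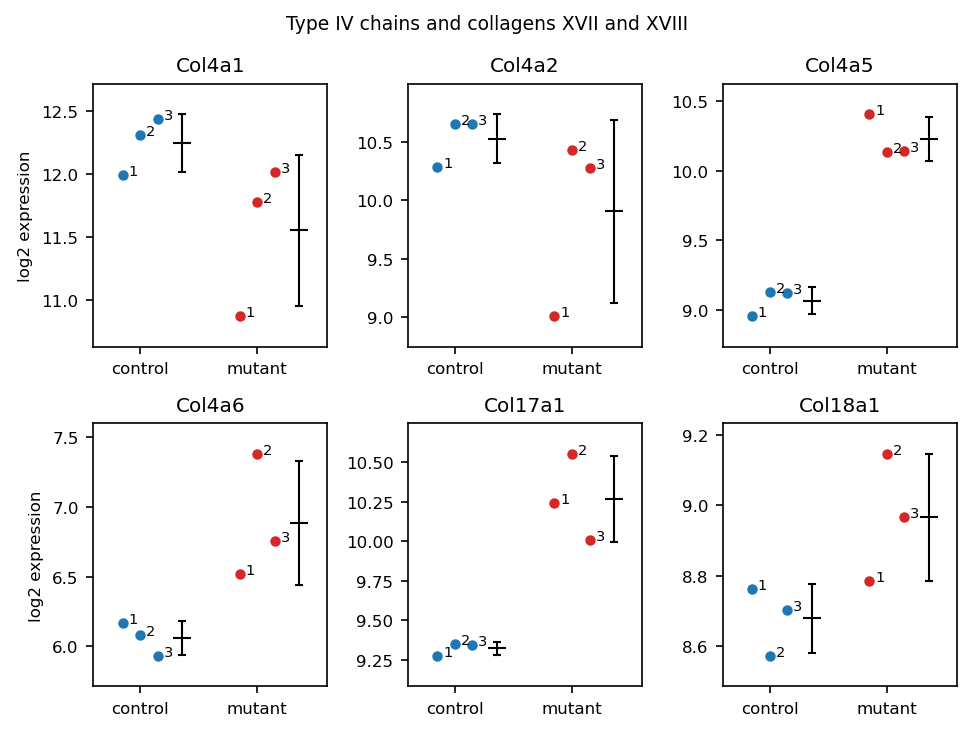
Log2 expression of collagens of the basement membrane and of Col17a1 on each array, with a numbered point for each of the 3 mutant and 3 control arrays and the group mean with its SD beside them. Col4a5 and Col17a1 are higher on every mutant array than on any control array, whereas Col4a1 and Col4a2 are lowest on mutant array 1, at 10.87 and 9.01.

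Among the 4 transmembrane collagens, which span the cell membrane and shed their outer part, 1 rose and 0 fell (at an unadjusted p under 0.05, 1 was higher and 1 lower). Col17a1 is the collagen of hemidesmosomes, the junctions that fix basal epithelial cells to the basement membrane. It read 10.24, 10.55 and 10.01 in the mutants, 10.27 ± 0.27 (SD, n = 3), and 9.27, 9.35 and 9.34 in the controls, 9.32 ± 0.04 (SD, n = 3). Every mutant array lay well above every control array. Col17a1 rose by 0.94 (standard error 0.14, 1.92-fold, limma adjusted p = 0.0249). Leaving out control array 1, 2 or 3 left differences of 0.92, 0.96 and 0.96 with adjusted p of 0.0882, 0.127 and 0.130, past the threshold in none of these fits.

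The epithelial markers were set beside these genes. All 8 were higher in the mutants by value, between 0.39 (Itgb4) and 0.94 (Krt14), 0 of them passed the threshold in limma (6 at an unadjusted p under 0.05), and their median difference was 0.59. With the replicate block Krt14 (adjusted p = 0.0315) and Epcam (adjusted p = 0.0457) passed (2.07% of all tested genes were called higher). Without mutant array 1 the median was 0.44, and Krt14 and Krt15 passed (3.17% of all tested genes were called higher). The summed level of the 8, the log2 of the summed unlogged values, was 14.17 to 14.80 in the mutants and 13.82 to 13.92 in the controls, and no marker was near 0. By array the summed level was highest on mutant array 1, as was Col4a5. Col4a6, Col17a1 and Col18a1 were highest on mutant array 2. Of the markers, Itgb4 (7.25, 7.47 and 7.08 on mutant arrays 1 to 3) and Trp63 (11.28, 11.40 and 10.88) were also highest on mutant array 2. The other epithelial markers were highest on mutant array 1. The part of the epithelial markers in the values of Col4a5, Col4a6, Col17a1 and Col18a1 was not tested.

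Col25a1, a transmembrane collagen of muscle and neurons needed for motor axons to enter muscle, read 8.75, 9.59 and 9.50 in the mutants and 10.00, 10.14 and 10.14 in the controls. The groups did not overlap and mutant array 1 was the lowest. The difference of -0.81 (standard error 0.21) had a limma adjusted p of 0.120, of 0.0445 with the replicate number as a block, and of 0.0166 without mutant array 1 (difference -0.55). Its other probe set differed by 0.05, between 7.08 and 7.17 on all arrays. Col13a1, a collagen of the neuromuscular junction, read 8.23, 9.21 and 8.99 in the mutants and 8.66, 8.59 and 8.62 in the controls. Mutant array 1 lay below the controls and the other mutants above, so the difference was 0.18 (adjusted p = 0.722) with it and 0.47 (adjusted p = 0.0357) without it. Col23a1 had the same pattern of arrays, 8.22, 9.14 and 8.85 against 8.69, 8.66 and 8.71, and a difference of 0.05 (adjusted p = 0.933). Its other probe sets differed by -0.20 and -0.19, with overlapping groups, and mutant array 2 was not above the controls on either.

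The 9 tested FACIT collagens, whose interrupted helices attach to fibrils or basement membranes, included 1 that rose and 1 that fell (at an unadjusted p under 0.05, 1 was higher and 2 lower). Col19a1, whose chain is made by differentiating muscle cells and lies in basement membrane zones, had the largest difference of any tested collagen. It read 5.24, 6.01 and 6.32 in the mutants, 5.86 ± 0.56 (SD, n = 3), and 8.09, 8.55 and 8.50 in the controls, 8.38 ± 0.25 (SD, n = 3). The controls were clearly expressed, and the mutants lay close to the filter value, where RMA compresses differences. Col19a1 fell by 2.52 (standard error 0.27, 5.74-fold, limma adjusted p = 0.0091). A second probe set fell by 2.82, and another, which was dim on every array (4.40 to 4.61), differed by -0.05. Without mutant array 1 the difference was -2.21 (adjusted p = 0.0014), and without control array 2 or 3 it was -2.44 and -2.46 (adjusted p = 0.063 and 0.0545).

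Col22a1 marks the myotendinous junction, where muscle fibres attach to tendon. It read 6.74, 8.22 and 8.46 in the mutants and 8.88, 9.38 and 9.50 in the controls. No mutant array reached a control array, and mutant array 1 lay apart at the bottom. The difference of -1.44 (standard error 0.43, 2.72-fold) missed the threshold in limma (adjusted p = 0.153). It passed with the replicate block (adjusted p = 0.0228) and without mutant array 1 (-0.91, adjusted p = 0.0436). A second probe set differed by -1.44 and another, dimmer, by -0.14. The suffix of the probe set used marks probes that can match other transcripts.

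Skeletal muscle markers were lower in the mutants by value in 9 of 9 cases, between -0.10 (Ckm) and -1.04 (Myh8). None of them passed the threshold in limma (5 did at an unadjusted p under 0.05), and with the replicate block 4 passed (1.52% of all tested genes were called lower). Their median difference was -0.69, and -0.34 without mutant array 1. Their summed level was 15.21 to 15.79 in the mutants and 15.80 to 16.18 in the controls, lowest on mutant array 1 and, among the controls, on control array 1. Their part in the values of Col19a1, Col22a1 and Col25a1 was not tested.

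Col9a1 encodes a chain of type IX collagen, which coats the type II fibrils of cartilage. It starts at 2 places, a distant upstream start used in cartilage and a downstream start used in the eye, both shown above. It read 9.33, 9.49 and 9.50 in the mutants, 9.44 ± 0.09 (SD, n = 3), and 8.87, 8.40 and 8.44 in the controls, 8.57 ± 0.26 (SD, n = 3). Every mutant lay above every control, and control array 1 was the highest control. Col9a1 rose by 0.87 (standard error 0.14, 1.83-fold, limma adjusted p = 0.0283). It lost its call in more of the 16 alternatives than any of the other 3 called genes. The other probe set differed by 0.27 with overlapping groups, and the mean of both gave 0.57 (adjusted p = 0.0683). With sex as a covariate the difference was 0.81 (adjusted p = 0.0693). It was 0.85 and 0.84 without mutant arrays 2 and 3 (adjusted p = 0.101 and 0.0626), and 0.79 and 0.80 without control arrays 2 and 3 (adjusted p = 0.150 and 0.157).

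The partners of Col9a1 in the type IX molecule did not pass. Col9a2 read 6.04, 6.32 and 5.90 in the mutants and 6.37, 6.12 and 6.05 in the controls (difference -0.09, adjusted p = 0.773). Col9a3 read 6.52, 6.60 and 6.60 against 6.64, 6.62 and 6.59 (difference -0.04, adjusted p = 0.818). The groups overlapped in both genes. Another Col9a3 probe set above the filter differed by 0.24, also with overlapping groups. On the brightest probe sets, Col9a1 relative to Col9a2 and Col9a3 on the same array was 0.96 and 0.91 higher in the mutants. There was no overlap (exact permutation p = 0.1 for each, the smallest possible, adjusted 0.2). The other probe sets of Col9a1 and Col9a3 were not paired. Col9a1 and Col19a1, which changed in opposite directions, are neighbours on chromosome 1 and lie on opposite strands.

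Of the 9 chondrocyte markers 6 were tested and 1 was called higher, where 1.32% of all tested genes were. Hapln1, Matn1 and Matn3 lay under the filter, and Acan, the large proteoglycan of cartilage, lay near it at 5.09 to 5.38. Cnmd, which encodes chondromodulin of cartilage and tendon, rose by 1.61 (limma adjusted p = 0.0272). Sox9, the transcription factor that specifies cartilage, differed by -0.12 and Acan by -0.05. The summed level of the list was 9.66 to 10.05 in the mutants and 9.59 to 9.74 in the controls, and its part in the value of Col9a1 was not tested.

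**Figure D3:**
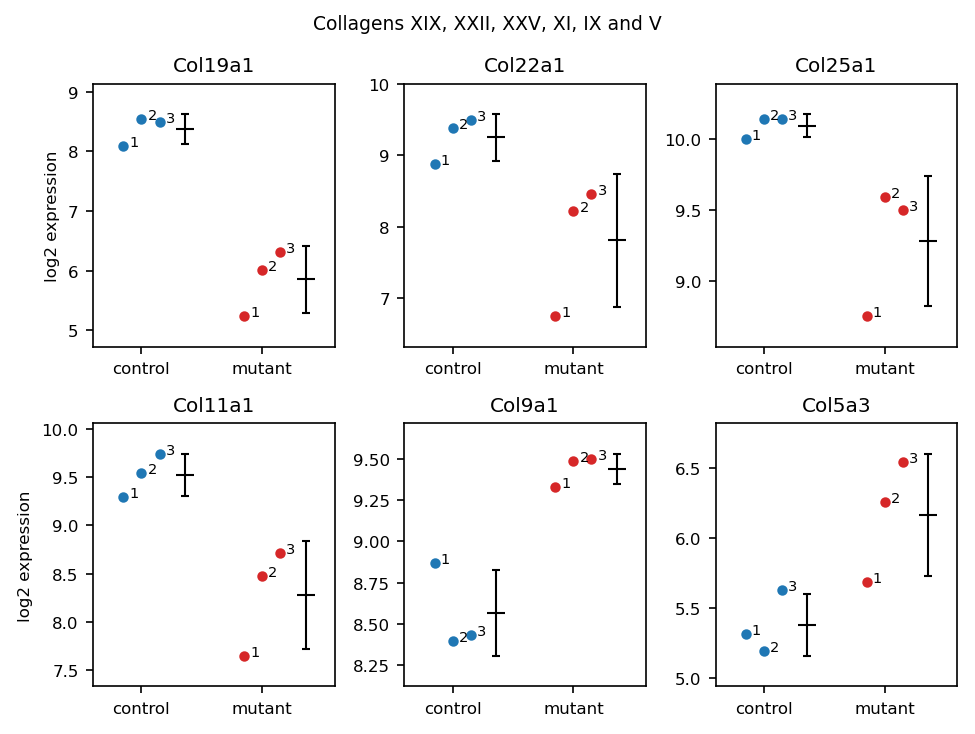
Log2 expression of 6 FACIT, fibrillar and transmembrane collagens on each array, with a numbered point for each of the 3 mutant and 3 control arrays and the group mean with its SD beside them. Col19a1 lies at 5.24 to 6.32 in the mutants and 8.09 to 8.55 in the controls, and Col9a1 and Col5a3 are the plotted genes that are higher on every mutant array.

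The remaining FACIT collagens overlapped between the groups. Col14a1, a collagen on the surface of fibrils, was among the brightest of the class and read 9.19, 9.96 and 9.80 in the mutants and 9.27, 9.53 and 9.69 in the controls (difference 0.15, adjusted p = 0.754). Col12a1, found in dense connective tissue, read 8.36, 8.84 and 9.47 against 8.73, 9.67 and 9.67 (difference -0.46, adjusted p = 0.530). Col16a1 differed by -0.14 and Col20a1 by 0.06.

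Of the fibrillar collagens, 10 of 11 were tested and 0 were called in limma, with 1 higher and 2 lower at an unadjusted p under 0.05. By value 9 of 10 were lower in the mutants, with a median of -0.32, but without mutant array 1 the median was -0.04 and 6 were lower. Type I collagen, the main fibre of connective tissue, is built of 2 Col1a1 chains and 1 Col1a2 chain. Col1a2 read 13.07, 13.77 and 14.004 in the mutants and 14.04, 14.22 and 14.30 in the controls. These groups did not overlap, but mutant array 3 lay just under control array 1, and the difference of -0.57 had a standard error of 0.23 (limma adjusted p = 0.270). Col1a1 read 9.02, 10.33 and 10.36 against 9.97, 10.68 and 10.66 (difference -0.54, standard error 0.38, adjusted p = 0.508). Within each group its lowest array was number 1.

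Col3a1, which makes the thin type III fibres of young connective tissue, read 13.72, 14.12 and 14.25 in the mutants and 13.92, 14.13 and 14.12 in the controls. Its groups overlapped fully and the difference was -0.03 (standard error 0.15, adjusted p = 0.950), with 0.29 on its other probe set. Relative to Col1a2 on the same array, Col3a1 was 0.55 higher in the mutants with no overlap (exact permutation p = 0.1, the smallest possible, adjusted 0.2). The chains Col5a1 and Col5a2 of type V, which starts new type I fibrils, differed by -0.43 and -0.09 (adjusted p = 0.542 and 0.876). Relative to Col5a2, Col5a1 was lower in every mutant array, by 0.34 on average, with the same exact permutation p of 0.1 (adjusted 0.2). Other Col5a1 probe sets differed by -0.23 and -0.24 and the other Col5a2 probe set by 0.11, all with overlapping groups.

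Col11a1 and Col5a3 had the smallest p of the fibrillar class. Col11a1, whose chain sets fibril width in cartilage and tendon, read 7.65, 8.47 and 8.71 in the mutants and 9.29, 9.54 and 9.73 in the controls. The gap between the groups was wide on every array. The difference of -1.24 (standard error 0.27, 2.37-fold, limma adjusted p = 0.0690) passed the threshold with the replicate block (adjusted p = 0.0116) and without mutant array 1 (-0.93, adjusted p = 0.0168). Its other probe set differed by -0.89. Col2a1, the cartilage fibril chain that also joins Col11a1 in type XI, read 6.39, 7.41 and 7.24 against 7.59, 7.53 and 7.48 (difference -0.52, adjusted p = 0.340). Relative to Col2a1, Col11a1 was lower in every mutant array, by 0.72 on average (exact permutation p = 0.1).

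Col5a3, a less widespread type V chain, was the sole fibrillar gene higher by value. It read 5.69, 6.26 and 6.55 in the mutants and 5.32, 5.20 and 5.63 in the controls. Mutant array 1 lay just above the highest control, and most values were close to the filter. The difference of 0.78 (standard error 0.22) had a limma adjusted p of 0.140, of 0.0457 with the replicate block and of 0.0147 without mutant array 1 (difference 1.02). Col24a1 and Col27a1, fibrillar chains of bone and cartilage, differed by -0.22 and -0.18.

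The 5 tested microfibrillar genes, mainly type VI chains, held 0 calls in limma and 0 with an unadjusted p under 0.05. Type VI collagen forms beaded filaments around muscle fibres and in connective tissue, and its molecule needs 1 chain each from Col6a1, Col6a2 and Col6a3. Col6a1 read 9.68, 11.01 and 10.88 in the mutants and 10.67, 11.08 and 11.15 in the controls, a difference of -0.45. Col6a2 read 10.71, 12.01 and 11.94 against 11.72, 12.12 and 12.07, a difference of -0.42. Col6a3 read 11.17, 12.59 and 12.83 against 12.21, 12.97 and 12.97, a difference of -0.52. The 3 chains shared 1 pattern, with mutant array 1 lowest and control array 1 the lowest control. Without mutant array 1 their differences were -0.03, 0.0018 and -0.0024. The change of Col6a1 relative to Col6a2 was -0.03 and relative to Col6a3 0.07, both with overlapping groups. Col26a1, placed in this class here, differed by -0.15 and Col6a4 by 0.09.

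Type VIII collagen makes a hexagonal sheet under endothelium and in the cornea, and its genes were the tested members of the short-chain network class, with 0 calls and 0 at an unadjusted p under 0.05. Col8a1 read 9.15, 9.85 and 9.69 in the mutants and 9.66, 10.14 and 10.18 in the controls (difference -0.43, adjusted p = 0.362). Col8a2 read 9.39, 9.33 and 9.10 against 9.33, 9.40 and 9.38 (difference -0.10, adjusted p = 0.659). The groups overlapped in both on the probe sets used. Other Col8a1 probe sets differed by -0.44, without overlap, and by -0.50, with overlap. Col10a1, the collagen of hypertrophic cartilage, lay under the filter at 4.54 to 4.97, as did Col11a2 at 4.29 to 4.64 and Col6a5 at 3.09 to 3.31. Fitted with no filter, the 5 dim collagens had adjusted p between 0.349 and 0.625.

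**Figure D4:**
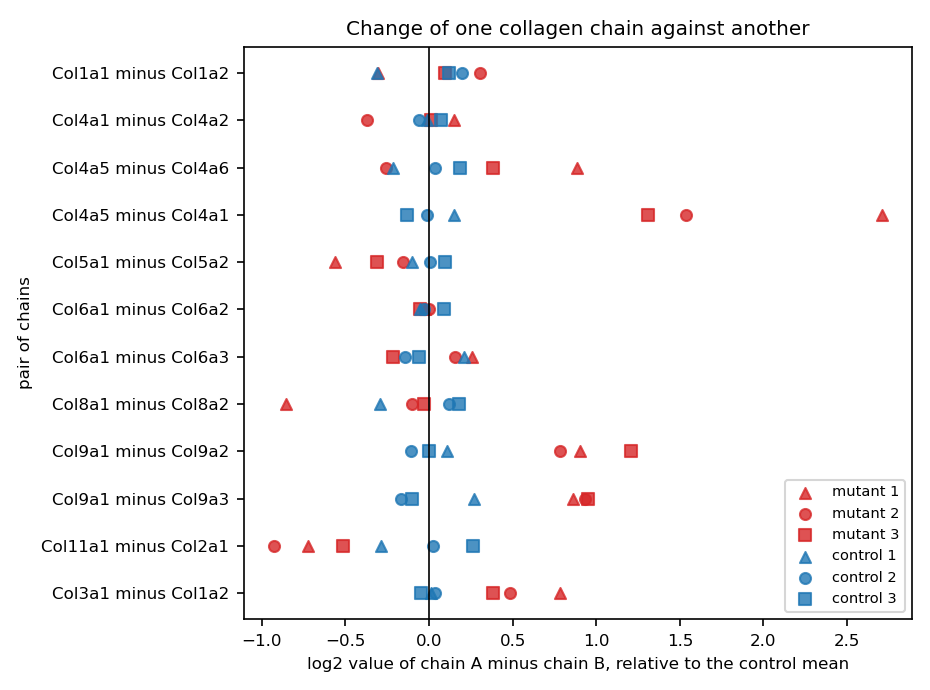
Log2 value of 1 chain minus that of another on each array, set against the control mean of the pair, for 12 chain pairs, of which 10 form 1 molecule. The groups do not overlap in 6 pairs. Most of these hold a gene whose own groups do not overlap, and no share over other gene pairs was computed, so the count describes these pairs only. Col4a5 against Col4a1 moved most, by 1.85 on average and farthest on mutant array 1, and the type I and type VI pairs stayed within 0.07 of the controls on average.

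Over the family as a whole, levels were lowest on mutant array 1. The median difference of the 37 tested collagens was -0.14, against 0.02 for all tested genes, and -0.0024 without mutant array 1. By array, the median collagen stood 0.47 below its control mean on mutant array 1, 0.04 above it on mutant array 2 and 0.02 below it on mutant array 3. The controls ranged from -0.15 on control array 1 to 0.11 on control array 3. Mutant array 1 was the lowest of the 6 arrays in 28 of 37 collagens (75.7%), against 32.6% of all tested genes, and control array 1 was the lowest control in 27 of 37 (73.0%), against 30.8%. The spread was wide as well: the median SD of a collagen was 0.45 in the mutants and 0.21 in the controls, against 0.17 and 0.08 over all tested genes. The collagens share these arrays, so the counts describe the arrays and are no test of the family.

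**Figure D5:**
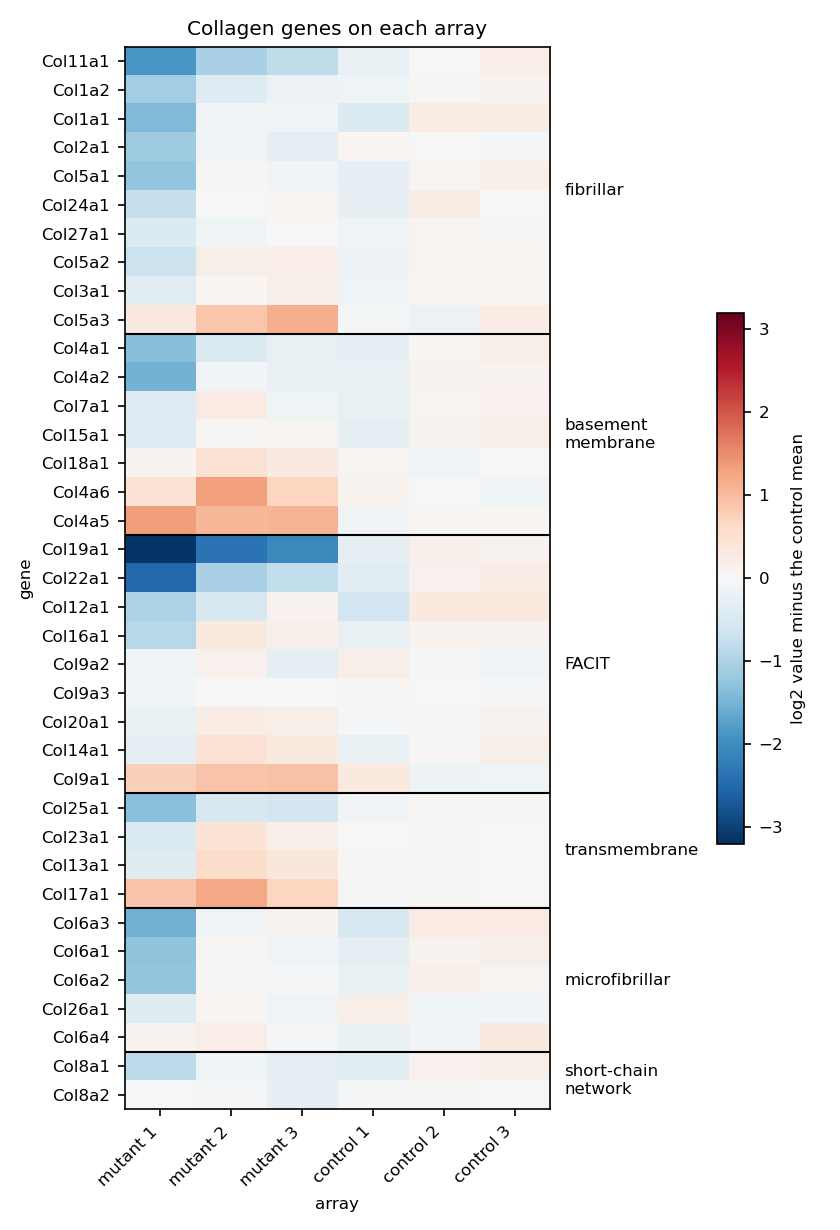
Log2 value of each tested collagen gene (rows, by class) on each of the 6 arrays (columns) minus the mean of its control arrays, in red where higher and blue where lower. The column of mutant array 1 is blue for most genes, with a median of -0.47, whereas Col4a5, Col17a1 and Col9a1 are red and Col19a1 blue on all 3 mutant arrays.

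Without mutant array 1, 6 collagens were called higher, where 3.17% of all tested genes were, and 4 lower, where 1.74% were. The replicate block gave 4 higher (2.07% of all tested genes) and 4 lower (1.52%), and array quality weights gave 6 higher (4.65%) and 4 lower (2.93%). The genes added among the lower were Col11a1, Col22a1 and Col25a1 in each of these fits, and Col5a3 was added among the higher in each. Leaving out control array 2 or control array 3 left 0 collagens called (limma), with 5 higher and 4 lower at an unadjusted p under 0.05 in each fit.

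The markers of other cells that make collagens were set beside these values. Endothelial markers were lower by value in 8 of 9 cases and 0 were called (1 at an unadjusted p under 0.05). In 4 of the 9 every mutant array lay below every control array (44.4%, against 11.5% of all tested genes). Their median was -0.39 with all arrays and -0.04 without mutant array 1, where 7 were lower by value and 2 higher. In that fit 1 was called lower, Cldn5 at -0.56 (limma adjusted p = 0.0360), where 1.74% of all tested genes were. The summed level of the endothelial markers was 10.23 to 11.03 in the mutants and 11.03 to 11.16 in the controls. Of 10 genes listed for fibroblasts and tendon, Dcn and Lum, proteoglycans that bind fibrils, rose by 0.65 and 0.77 (limma adjusted p = 0.0238 and 0.0152). By value 7 of the 10 were lower. The largest difference of the list was that of Thbs4, a matrix gene of tendon and its muscle attachments, at -1.85 without overlap (limma adjusted p = 0.119). It passed with the replicate block (adjusted p = 0.0353) and without mutant array 1 (-1.23, adjusted p = 0.0118). The summed level of the list, 14.34 to 14.76 in the mutants and 14.61 to 14.75 in the controls, was lowest on mutant array 1. That array was the lowest of the 6 in 5 of the 10 listed genes. Tcf4, a bright listed gene that is not specific to these cells, is part of that sum. It read 11.56 on mutant array 1 and 12.53 to 12.82 on the other arrays. Dcn and Lum read 12.84 and 12.55 on mutant array 1, above every control array. Over all tested genes the shares called were 1.32% higher and 0.821% lower, and 2.07% higher with the replicate block. Among Schwann cell and nerve markers 1 of 6 was called higher, and among macrophage markers 2 of 8 (3 with the replicate block). Among osteoblast markers 1 of 3 was called lower, Dmp1 at -1.32. The others were higher by value, Sp7 by 0.30 without overlap and Alpl by 0.02. Among red cell markers 0 of 3 were called (1 at an unadjusted p under 0.05). The part of these cells in the collagen values was not tested.

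The genes that build, cut, bind and degrade collagen gave 0 calls over all 6 arrays in limma. Of the 22 that modify and assemble chains in the endoplasmic reticulum, 10 were higher and 12 lower by value, with a median of -0.02, and 2 were lower at an unadjusted p under 0.05. Tmem38b, an endoplasmic reticulum ion channel gene, differed by -0.35 (adjusted p = 0.249), Colgalt2, a collagen galactosyltransferase gene, by -0.27 (adjusted p = 0.288) and P3h1, a prolyl 3-hydroxylase gene, by -0.21 (adjusted p = 0.347). Of the genes for cleaving procollagen and cross-linking fibrils, 9 of 10 were tested, 0 had an unadjusted p under 0.05, and the median was -0.11. The smallest p were those of Loxl4 (0.18), Tll1 (-0.56) and Loxl1 (-0.19). Tll2, a protease gene of the Bmp1 family, lay under the filter with a mean of 4.32 in the mutants and 5.19 in the controls, without overlap, and fitted with no filter it fell by 0.87 (limma adjusted p = 0.0079).

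Among collagen receptors 6 of 9 were tested, 1 being higher and 1 lower at an unadjusted p under 0.05. Itga1, the integrin alpha1 chain that binds type IV collagen, read 6.02, 6.61 and 6.81 in the mutants and 7.20, 7.42 and 7.36 in the controls. The groups did not overlap, and the difference of -0.84 (limma adjusted p = 0.0906) passed with the replicate block (0.0302) and without mutant array 1 (-0.61, adjusted p = 0.0233). Ddr1, a collagen-binding receptor kinase of epithelium, read 12.20, 12.22 and 12.11 against 11.83, 11.82 and 11.78. Its difference of 0.37 (adjusted p = 0.0822) passed without mutant array 1 (0.35, adjusted p = 0.0492). Mrc2, which takes up collagen fragments, differed by -0.19. Of the collagenases and gelatinases 4 of 6 were tested, with 1 higher at an unadjusted p under 0.05: Ctsk, the bone-resorbing cathepsin, differed by 0.38 (adjusted p = 0.208), Mmp9 by -0.26 and Mmp2 by -0.42.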

How the data were processed

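Total RNA of 6 tongues was read on an Affymetrix expression array, 1 array per sample. The deposited values are log2 expression, made by the authors with RMA, as named in the submitters' processing notes without a version. RMA forces nearly the same distribution on all arrays, so a shift shared by most genes would not show, and it compresses differences of dim probe sets. The table holds 45101 probe sets, 64 of them controls. Names came from the platform annotation, in which 34945 have 1 gene symbol. Groups came from the sample titles and genotypes.

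Mutants and controls were compared over all genes in R 4.3.3 with the limma package, version 3.58.1 (linear model with eBayes, 2-sided, Benjamini-Hochberg adjusted p under 0.05). Each gene was read by its brightest probe set, and a gene was left out if its mean was among the lowest 25% (a value of 5.17). The median standard error was 0.117, and precision is limited by having 3 arrays in each group. Of the other probe sets of tested collagens above that value, 19 of 28 had the same sign. The code was tested on simulated data. Chain pairs were compared with exact permutation tests (scipy 1.17.1), on the brightest probe set of each gene.

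The collagen genes, pathway lists, marker lists and alternatives were chosen with earlier results of these data known. Values on every array are given for called collagens, for the 2 brightest and the 2 with the smallest p of a class, and for their partner chains. The marker lists were skeletal muscle, chondrocyte, osteoblast, endothelium, epithelium, Schwann cell and nerve, macrophage, red cell, and fibroblast and tendon. The alternatives were no filter, the lowest 50% left out, the mean of the probe sets, every probe set, centred arrays, quantile normalization, trend and robust fitting, array quality weights, a replicate block, a sex covariate and each array left out in turn.

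Sample titles carry the numbers 1 to 3 in each group. Between same-numbered mutant and control arrays, deviations from the group mean had correlations of 0.309, 0.105 and 0.206. As each exceeded 0.1, a fit with the number as a block was run as an alternative. The unlike-numbered pairs of arrays 2 and 3 also exceeded it, at 0.147 and 0.196. The main fit and the permutation tests did not pair the arrays. For collagens whose call the replicate block changes, its value stands beside the result.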

Additional observations from a re-analysis of the deposited data

How the results depend on the processing

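Over all 6 arrays 3 collagen genes were called higher and 1 lower. The number called lower was 0 in limma with the lowest 50% of genes left out (5 at an unadjusted p under 0.05), because the mean of Col19a1 then lay under the filter. Array quality weights gave 6 higher and 4 lower, and the replicate block gave 4 lower. With each array left out in turn the number called higher ranged from 0 to 6 and the number called lower from 0 to 4. Both were 0 without control array 2 and without control array 3, and both were highest without mutant array 1. Every other alternative gave 2 or 3 higher and 1 lower, except the replicate block, whose count of 4 higher was within 1.5 times. Among 582 comparisons of a single collagen under an alternative, 522 kept their direction and side of the threshold, 13 lost the call, 16 gained it, 31 uncalled differences changed sign, and 0 called differences reversed. Col4a3, Col4a4, Col11a2, Col6a5 and Col10a1 were too dim for a difference to be measured well.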
